A study of Mus musculus with 4 samples.

Results

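Adipocytes act as endocrine cells, and 10 genes listed as adipocyte secreted and hormone signal genes were described in the skin of mouse embryos: Lep, Adipoq, Retn, Cfd, Rbp4, Agt, Nrg4, Adig, Adrb3 and Angptl4. They were found by symbol in the platform annotation among probe sets that name a single gene. A probe set was found for 8 of the 10, each with 1 only, among 19938 gene symbols in all. Cfd was not analysed here, nor was Adrb3, the gene of a hormone receptor. Adig is in the list although it encodes a membrane protein of fat cells and not a secreted product. The genes were chosen by role with their differences in intensity between these arrays already known, and the probe set rule used the mean intensity. Their values are therefore a description, and their adjusted p-values below say only where each stands among all genes tested.

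Total RNA of whole skin at E17.5 (E for embryonic day) was hybridised to 4 Affymetrix whole-transcript arrays, 2 per group, each with RNA of 2 mice. The control arrays held mice with the TRE-Ovol2-Flag transgene alone, which is silent without a driver, or wild type mice; which array held which is not labelled. The Ovol2 BT arrays held TRE-Ovol2-Flag;K5-tTA mice, in which the tetracycline transactivator is made from a keratin 5 promoter and so drives Ovol2, a zinc finger transcription factor of epithelia, in the basal epidermis. All mice are labelled female and described as littermates. Their labelled strain is nevertheless CB6F1 in the control group but FVB/N in the Ovol2 BT group, so strain and transgene cannot be told apart from the labels. The series asks how epidermal differentiation changes when Ovol2 is overexpressed. Skin was taken whole, and a change in the number of fat cells cannot be told apart from a change in RNA per fat cell.

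Leptin, adiponectin and resistin are hormones that fat cells release into the blood: leptin reports fat stores to the brain, adiponectin raises insulin sensitivity in liver and muscle, and resistin opposes insulin action in rodents. Adipocytes also release precursors and carriers that other tissues use, such as angiotensinogen and the retinol carrier of plasma. In mouse skin the dermal fat layer forms in late gestation. Many genes of this kind are activated during fat cell formation by the nuclear receptor PPAR-gamma and the C/EBP factors.

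The stretches just before the start sites of the 4 genes that passed the test are shown because these genes were higher together, so that the sequence next to each start can be read beside its values. They are the 250 bases before the RefSeq start site (build GRCm38.p6), 5' to 3' on the gene's own strand, and such stretches were found for 7 of the 8 genes, 1 each except for Rbp4, which has 2 starts. Capitals mark matches to the motifs searched. These were the nuclear receptor motif AGGTCA, its direct repeat with a 1-base spacer, the C/EBP motif TTGCNNAA, the OVOL core CCGTTA and the E-box CACGTG on both strands, and TATAAA on the gene's strand. A direct repeat also counts as AGGTCA.
Lep (chr6:29059971-29060220, plus strand): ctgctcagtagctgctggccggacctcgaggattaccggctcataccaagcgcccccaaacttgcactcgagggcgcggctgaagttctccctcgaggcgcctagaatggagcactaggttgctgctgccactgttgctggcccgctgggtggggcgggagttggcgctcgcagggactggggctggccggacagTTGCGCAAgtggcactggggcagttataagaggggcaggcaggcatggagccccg
Adipoq (chr16:23146286-23146535, plus strand): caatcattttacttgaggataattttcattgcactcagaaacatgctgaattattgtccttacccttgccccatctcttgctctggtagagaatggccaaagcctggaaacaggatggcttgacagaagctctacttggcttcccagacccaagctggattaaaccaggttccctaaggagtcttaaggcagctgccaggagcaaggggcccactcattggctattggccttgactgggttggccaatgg
Agt (chr8:124569707-124569956, minus strand): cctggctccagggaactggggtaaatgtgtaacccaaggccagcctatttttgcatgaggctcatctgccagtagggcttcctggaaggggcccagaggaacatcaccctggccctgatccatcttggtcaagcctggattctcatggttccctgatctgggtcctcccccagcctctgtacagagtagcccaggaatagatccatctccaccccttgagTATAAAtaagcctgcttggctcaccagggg
Adig (chr2:158502362-158502611, plus strand): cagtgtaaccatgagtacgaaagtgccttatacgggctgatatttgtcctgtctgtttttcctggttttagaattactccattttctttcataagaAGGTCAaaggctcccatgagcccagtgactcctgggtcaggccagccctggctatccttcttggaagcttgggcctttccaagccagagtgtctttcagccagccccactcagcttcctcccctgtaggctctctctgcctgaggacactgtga

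The Lep stretch held a C/EBP motif, TTGCGCAA, 55 to 48 bases before the start. The other gene of the 7 with this motif was Rbp4, in 1 of its 2 stretches, and 9.56% of all 32851 such stretches in the table held it. The Agt stretch held TATAAA 30 to 25 bases before the start, as did the same stretch of Rbp4 from base 28 to base 23 before its start, against 7.59% of all stretches. Adig held AGGTCA once, 154 to 149 bases before the start, and Nrg4 held 2 copies, against 14.0% of all stretches with at least 1. None of the 7 genes held the direct repeat (0.0335% of all stretches), the OVOL core (2.18%) or the E-box (6.02%) in this window, and the Adipoq stretch held none of the motifs. A match describes the letters only, and sequence outside the window was not searched.

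All 8 genes had higher mean values in Ovol2 BT skin, and 4 passed an adjusted p of 0.05 in limma: Adig (6.68-fold), Adipoq (5.36-fold), Agt (2.86-fold) and Lep (2.32-fold). Retn had the widest difference of the 8, 10.5-fold, and did not pass. Rbp4, Nrg4 and Angptl4 differed by 1.28-fold, 1.49-fold and 1.34-fold and did not pass. Of 14953 genes tested, 0.963% were called, 0.615% higher and 0.348% lower; since the 8 were chosen with this contrast known, nothing is read from 4 of 8. For 7 of the 8 both Ovol2 BT arrays exceeded both controls, which held for 20.4% of all genes tested, and 44.4% of all genes had a difference above 0. Fold changes are on the log2(intensity + 16) scale, which understates those of dim genes, and each rests on 2 arrays per group.

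**Figure D1:**
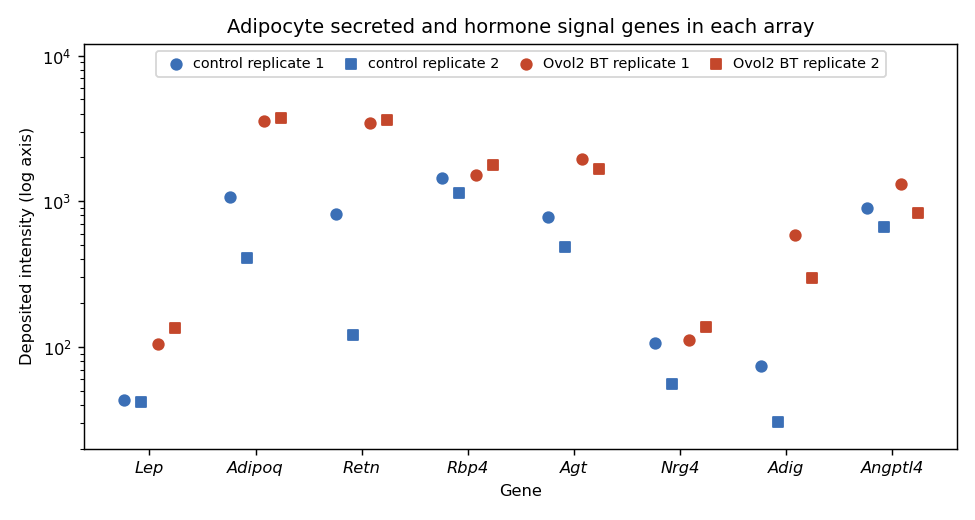
Deposited intensity (log axis) of the 8 genes in each of the 4 arrays; blue is control, red is Ovol2 BT, circles are replicate 1 and squares replicate 2. The Ovol2 BT points lie above both control points for every gene except Angptl4, and control replicate 1 lies above control replicate 2 for all 8, widely for Retn and barely for Lep.

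Among the circulating hormones, Lep encodes leptin, whose probe set was dim in this skin. Intensities are given for replicate 1 and then replicate 2 throughout, and Lep read 43.1 and 41.8 in control skin against 105 and 135 with Ovol2 BT. The control values lie near the lower quartile of all probe sets on these arrays (40.5 to 45.3), and both Ovol2 BT values were above them. Lep rose by 1.21 on the log2 scale (SE 0.16, 95% interval 0.86 to 1.57, limma adjusted p = 0.00930). The filter on low genes left out those with a mean log2 level under 6.38, and Lep, at 6.48 over the 4 arrays and 5.87 in the controls, passed it only through the Ovol2 BT arrays. Without the filter its limma adjusted p was 0.0165. With either Ovol2 BT array left out, Lep fell below the filter and was not tested. The difference was 1.47 with a pseudocount of 1 and 0.79 with 64, and the gene was called under both.

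Adipoq encodes adiponectin, an abundant protein of differentiated fat cells. It read 1076 and 409 in control skin against 3568 and 3708 with Ovol2 BT. The Ovol2 BT arrays lay close together and well above both controls, which were themselves 2.63-fold apart. Adipoq rose by 2.42 (SE 0.37, 95% interval 1.58 to 3.26, limma adjusted p = 0.0191). The rise was 3.10 when control replicate 1 was left out and 1.74 when control replicate 2 was.

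Retn encodes resistin and showed the same order of the groups with a wider gap between the controls. It read 815 and 121 in control skin against 3446 and 3625 with Ovol2 BT. The control arrays were 6.75-fold apart, the Ovol2 BT arrays nearly equal, and the groups did not overlap. The log2 difference was 3.40 (SE 0.65, 95% interval 1.93 to 4.86, limma adjusted p = 0.0538). Its size depends on the control array used: it was 4.70 when control replicate 1 was left out and 2.09 when control replicate 2 was. With Ovol2 BT replicate 1 or 2 left out it was 3.43 or 3.36. A fit without 1 control array leaves out the gap between the controls, so a call there was not read as support. Retn was called by limma with a pseudocount of 64 (adjusted p = 0.0392), with the lower 50% of genes left out (0.00708) and under median centring (0.0272). In 7 of the 16 alternatives it was not called, with adjusted p from 0.0548 (probe sets averaged) to 0.0873 (no variance trend), 0.0697 without the filter and 0.0610 with a pseudocount of 1.

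**Figure D2:**
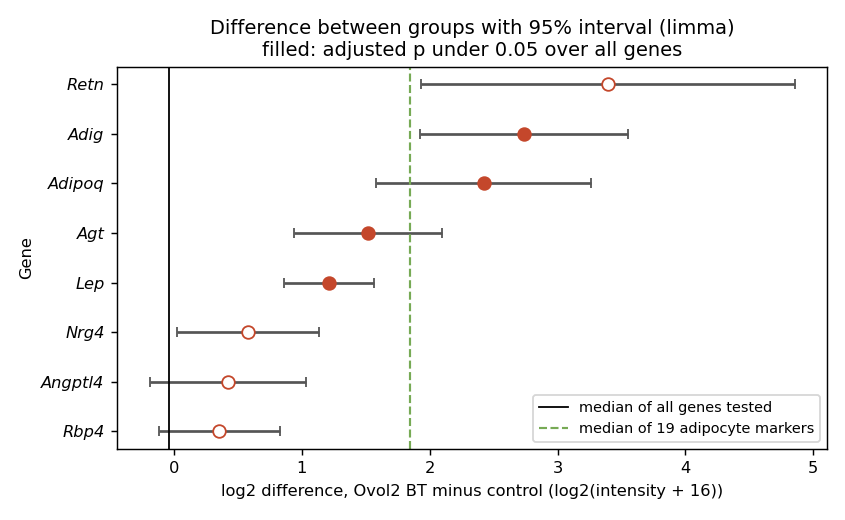
log2 difference (Ovol2 BT minus control, limma, 2 arrays per group) of the 8 genes with its 95% interval; filled points passed an adjusted p of 0.05 over all genes tested. The solid line is the median of all genes tested (-0.04) and the dashed line that of 19 adipocyte markers (1.85); Retn has the largest difference and the widest interval.

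Among the secreted precursors and carriers, Agt was the one that rose. It encodes angiotensinogen, which renin cleaves on the way to the pressor peptide angiotensin and which fat and liver both make. It read 783 and 486 in control skin against 1938 and 1667 with Ovol2 BT, so both Ovol2 BT arrays exceeded both controls. Agt rose by 1.52 (SE 0.26, 95% interval 0.94 to 2.10, limma adjusted p = 0.0305).

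Rbp4 encodes the plasma carrier of retinol, made in liver and fat. It read 1441 and 1141 in control skin against 1520.5 and 1783 with Ovol2 BT, with the lower Ovol2 BT array only slightly above the higher control. The log2 difference was 0.36 (SE 0.21, 95% interval -0.12 to 0.83, limma adjusted p = 0.594). It was 0.52 when control replicate 1 was left out and 0.19 when control replicate 2 was.

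Liver genes were read beside both, since liver also makes these products. Of the 10 liver markers listed, 9 had a value and 8 were tested. Limma called 1 (Apoc3) higher and 1 (Alb) lower, against 0.615% and 0.348% of all genes. Alb, which encodes albumin, read 305 and 865 in control skin against 46.1 and 104 with Ovol2 BT. The summed intensity of the 9 was 7751 and 3931 in control skin against 4452 and 3841 with Ovol2 BT. Most of the Ovol2 BT sums came from Trf, which read 1880 and 1220 in control skin against 2986 and 2866 with Ovol2 BT. Of the 8 tested, 6 had lower values in Ovol2 BT and 2 higher, Trf (0.94) and Apoc3 (1.06). Their median was -1.02, and 7 had an unadjusted limma p under 0.05, against 1548 of all 14953 genes tested. The part of liver RNA in the values of Agt and Rbp4 was not tested.

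Angptl4 encodes a secreted inhibitor of lipoprotein lipase that fasting and PPAR activity induce. It read 905 and 663 in control skin against 1303 and 833 with Ovol2 BT, so that the groups overlapped: the lower Ovol2 BT array lay below the higher control. The log2 difference was 0.42 (SE 0.27, 95% interval -0.19 to 1.03, limma adjusted p = 0.618). It was 0.10 when Ovol2 BT replicate 1 was left out and 0.74 when Ovol2 BT replicate 2 was.

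Nrg4 encodes a ligand of the ErbB receptors that brown fat releases. It read 106 and 55.6 in control skin against 112 and 137 with Ovol2 BT. Control replicate 1 almost reached the lower Ovol2 BT array, while control replicate 2 stood well below. The log2 difference was 0.58 (SE 0.25, 95% interval 0.02 to 1.14, limma adjusted p = 0.460). It was 0.97 when control replicate 1 was left out and 0.19 when control replicate 2 was.

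Adig encodes adipogenin, a small membrane protein of fat cells that takes part in lipid droplet formation. It read 74.0 and 30.8 in control skin against 582 and 298 with Ovol2 BT. Both Ovol2 BT arrays were far above the controls, although the arrays of each group also lay apart, by 0.94 (control) and 0.93 (Ovol2 BT) on the log2 scale. Adig rose by 2.74 (SE 0.36, 95% interval 1.93 to 3.55, limma adjusted p = 0.0101). Like Lep it passed the filter only through the Ovol2 BT arrays, with a control mean of 6.02 on the log2 scale. The difference was 3.10 with a pseudocount of 1 and 2.08 with 64, and Adig was called under both. Without the filter its limma adjusted p was 0.0120.

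The control arrays differed in the level of most of these genes. Control replicate 1 was above control replicate 2 for 8 of 8, against 8560 of 14953 genes tested. The median signed log2 gap was 0.72, against 0.05 for all genes tested, whose 5th to 95th percentiles spanned -0.57 to 0.49. Retn (2.60), Adipoq (1.36), Adig (0.94), Nrg4 (0.77) and Agt (0.67) lay above that range, and Angptl4 (0.44), Rbp4 (0.33) and Lep (0.03) within it. The Ovol2 BT arrays differed in both directions, with 3 of the 8 higher in replicate 1 and a median absolute gap of 0.24, the same as for all genes tested (0.24). Of 19 adipocyte markers that are not among the 8, 14 were higher in control replicate 1, with a median gap of 0.57.

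**Figure D3:**
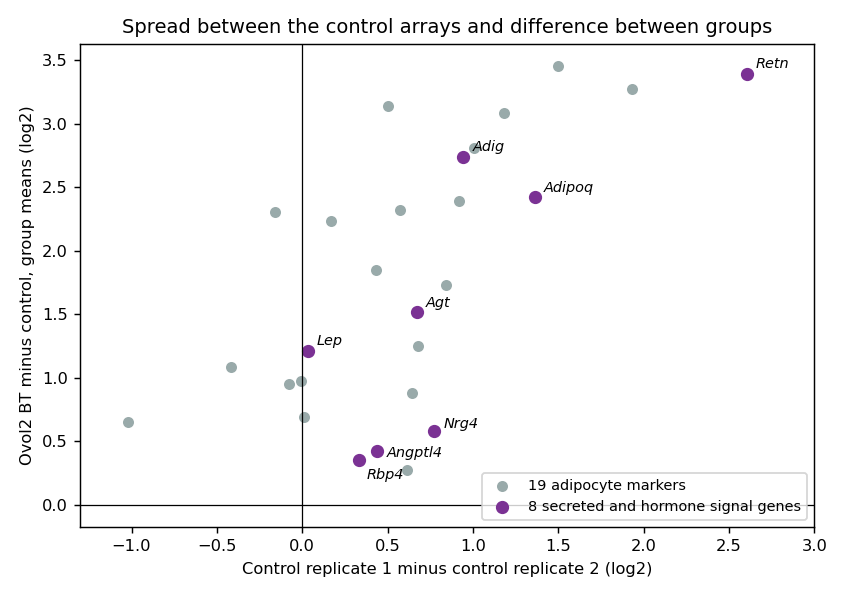
Each point is a gene, with the log2 gap between the control arrays (replicate 1 minus replicate 2) on the x axis and the log2 difference between group means (Ovol2 BT minus control) on the y axis; purple points are the 8 genes and grey points 19 adipocyte markers. Retn lies farthest to the right (2.60) and Lep near 0, and all points lie above 0 on the y axis.

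Fat cell markers moved in the same direction as the 8 genes. Of 20 markers listed (such as Fabp4, Plin1 and Cidec), 19 had a value, all 19 had higher values in Ovol2 BT and 11 were called, against 0.615% of all genes called higher. Their median difference was 1.85, against -0.04 for all genes tested. Their summed intensity was 21046 and 15949 in control skin against 47395 and 45658 with Ovol2 BT, and none was under 16 in both controls. Cidea, Pck1 and Ucp1, all called, passed the filter of 6.38 only through the Ovol2 BT arrays, with control means of 6.13, 5.97 and 5.83. The marker lists of all cell types were chosen with earlier results known, so their counts of calls are a description. The part of fat content in the differences of the 8 genes was not tested. Of 12 fibroblast and matrix markers 0 were called by limma, against 0.963% of all genes (median 0.02). All 10 keratinocyte markers had lower values, against 8310 of 14953 genes tested. Of these 10 markers 3 were called lower, against 0.348% of all genes (median -0.47). An unadjusted limma p under 0.05 was found for 0 of the fibroblast and matrix markers and 5 of the keratinocyte markers, against 1548 of 14953 genes tested. Limma called 0 of 10 skeletal muscle markers (2 at an unadjusted p under 0.05), 0 of 10 endothelial markers (0) and 0 of 9 tested macrophage markers (2). Their values were higher in Ovol2 BT for 10 of 10 (median 0.21), 10 of 10 (median 0.23) and 7 of 9 (median 0.05), against 44.4% of all genes. Among 8 tested preadipocyte markers only Ebf2, a factor of brown fat precursors, was called higher (1.33, limma adjusted p = 0.0241), with a list median of 0.10.

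The differences of the 8 genes were spread over the range of those markers. Retn exceeded the difference of 18 of the 19 markers, and Adig and Adipoq each exceeded that of 14. Agt exceeded 8 and Lep 7, while Rbp4, Angptl4 and Nrg4 each exceeded 1. These ranks are a description with no test.

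None of the receptors and partners of the products was called, against 0.963% of all genes tested, so nothing is read from 0 of 19. Of 26 listed, 19 were tested and limma called 0, with a median of -0.02. An unadjusted limma p under 0.05 was found for 5 of the 19, against 1548 of all 14953 genes tested. Lepr, the leptin receptor, read 308 and 541 in control skin against 279.5 and 286 with Ovol2 BT, a log2 difference of -0.51 (SE 0.27, limma adjusted p = 0.572). Of the adiponectin receptors, Adipor1 differed by -0.02 (SE 0.18, 95% interval -0.43 to 0.40, limma adjusted p = 0.978). Adipor2 read 2328 and 1846 in control skin against 3511 and 3465 with Ovol2 BT, so the groups were apart, with a difference of 0.75 (SE 0.19, limma adjusted p = 0.155). The retinol carrier's receptor gene Stra6 differed by 0.27 (SE 0.19, limma adjusted p = 0.643).

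Further along the angiotensin route, Enpep, an aminopeptidase that trims angiotensin, read 86.5 and 78.2 in control skin against 149.9 and 171 with Ovol2 BT. Its difference of 0.84 (SE 0.17, limma adjusted p = 0.0667) had the smallest p of the receptor and partner list. The angiotensin receptor genes Agtr1a (0.05, SE 0.21, adjusted p = 0.940) and Agtr2 (-0.13, SE 0.32, adjusted p = 0.900) overlapped between groups. So did Erbb4 (-0.02, SE 0.15, adjusted p = 0.970), the receptor of neuregulins such as the Nrg4 product. Erbb3, a related receptor, was lower in both Ovol2 BT arrays without passing the test (-0.30, SE 0.20, adjusted p = 0.630).

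Lpl, the lipase that the Angptl4 product inhibits, read 965 and 1296 in control skin against 2495 and 2293 with Ovol2 BT. Its difference was 1.09 (SE 0.21, limma adjusted p = 0.0590), and the groups did not overlap. Gpihbp1, which carries the lipase to the capillary wall, differed by 0.32 (SE 0.25, limma adjusted p = 0.665) with overlapping groups.

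Angptl8, a relative of Angptl4 that feeding induces in fat and liver, was the only call among 29 tested genes for other adipocyte secreted products. It read 139.9 and 62.5 in control skin against 432 and 381 with Ovol2 BT. Angptl8 rose by 1.93 (SE 0.30, 3.81-fold, limma adjusted p = 0.0214), with control replicate 1 again the higher control. The list's median was 0.18. Of the alternative complement pathway, to which the adipocyte protease encoded by Cfd belongs, 6 of 13 genes were tested. Limma called 0 of the 6, against 0.963% of all genes. An unadjusted limma p under 0.05 was found for 0, against 1548 of 14953 genes tested. The smallest p values of the pathway were those of Cfp (0.32, adjusted p = 0.618) and Masp1 (0.24, adjusted p = 0.704).

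Several receptors by which fat cells sense hormones and metabolites were higher. Of 18 tested, 4 were called higher and 0 lower, against 0.615% and 0.348% of all genes, and the median of the 18 was 0.34. Mc2r, the receptor of corticotropin, read 92.1 and 60.6 in control skin against 349 and 457 with Ovol2 BT. It rose by 2.19 (SE 0.23, 4.56-fold, limma adjusted p = 0.00481). Tshr, the thyrotropin receptor, read 159 and 121 in control skin against 599.9 and 615 with Ovol2 BT, and rose by 2.01 (SE 0.22, limma adjusted p = 0.00481). Both Ovol2 BT arrays stood far above the controls for these receptors, which couple to cyclic AMP.

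Hcar1, a lactate receptor that restrains lipolysis, read 190.2 and 136 in control skin against 754 and 521 with Ovol2 BT. It rose by 1.86 (SE 0.26, limma adjusted p = 0.0121). Ffar4, a receptor of long-chain fatty acids, read 73.7 and 85.4 in control skin against 176 and 249.6 with Ovol2 BT, and rose by 1.24 (SE 0.20, limma adjusted p = 0.0272). For Ffar4 control replicate 2 was the higher control, unlike the 8 secreted and hormone signal genes.

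Downstream of those receptors, 3 of 19 tested genes of cyclic AMP signalling and lipolysis were called higher and 0 lower, against 0.615% and 0.348% of all genes (median 0.37). All 3 act at the lipid droplet and are also among the adipocyte markers: Pnpla2, the triglyceride lipase (2.39, SE 0.29, adjusted p = 0.00760), Plin1, the droplet coat protein (1.85, SE 0.23, adjusted p = 0.00760), and Lipe, hormone-sensitive lipase (1.73, SE 0.29, adjusted p = 0.0299). In insulin signalling limma called 0 of 14 genes, against 0.963% of all genes (median 0.29). An unadjusted limma p under 0.05 was found for 3 of the 14, against 1548 of 14953 genes tested. The insulin-responsive glucose transporter gene Slc2a4 (1.25, SE 0.28, adjusted p = 0.103) and the lipogenic factor gene Srebf1 (2.15-fold, SE 0.25, adjusted p = 0.112) had its smallest p values, and neither passed. The 6 lists were chosen with earlier results known, so their counts of calls are a description. Over the 6 lists together, 102 genes were tested and 8 were called higher and 0 lower, against 0.615% and 0.348% of all genes. With control replicate 1 left out, 13 were called higher and 0 lower, and with control replicate 2 left out, 10 higher and 2 lower.

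**Figure D4:**
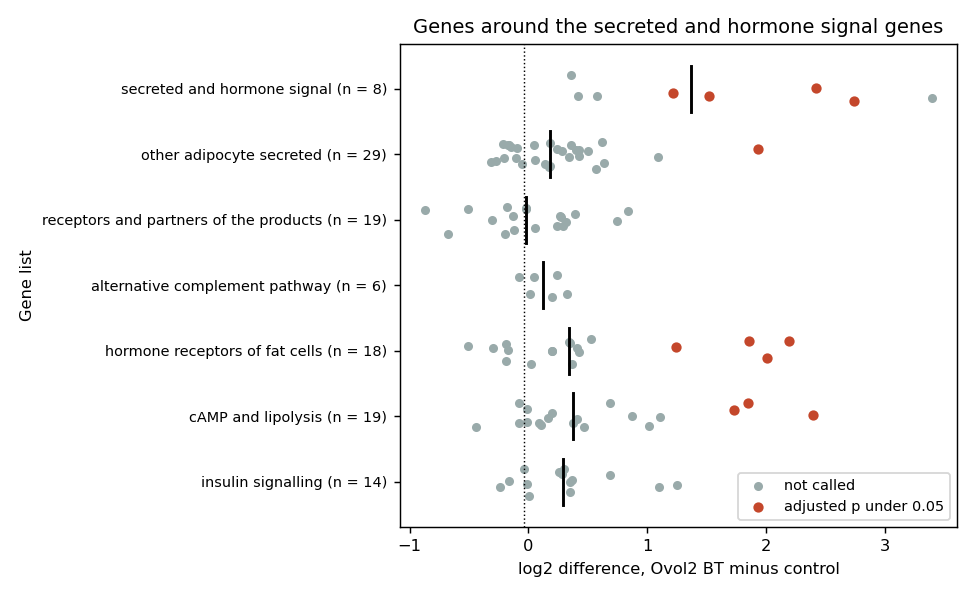
log2 difference (Ovol2 BT minus control) of each tested gene in the 6 lists and, at the top, the 8 secreted and hormone signal genes, with the median as a black bar and called genes in red; the dotted line is the median of all genes tested and the vertical scatter has no meaning. Below the top row, calls lie among the hormone receptors, the lipolysis genes and the other secreted products (Angptl8).

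The mean profile of the 8 genes over the 4 arrays was lowest in control replicate 2 (-1.24 from their own mean, log2), next in control replicate 1 (-0.34), and highest in Ovol2 BT replicates 1 (0.84) and 2 (0.74). By Euclidean distance of centred log2 profiles over the 4 arrays, the gene most like it was Ephx2 (0.16), which encodes soluble epoxide hydrolase. Next came Cmbl (0.26), Lipe (0.27), the insulin receptor substrate gene Irs3 (0.29), Itih4 (0.29) and Mlxipl (0.30), a carbohydrate-responsive transcription factor. Irs3 and Itih4 passed the filter of 6.38 only through the Ovol2 BT arrays, with control means of 5.99 and 6.18. Lipe is also among the adipocyte markers. Ephx2 read 213 and 123 in control skin against 519 and 453 with Ovol2 BT, the same order of arrays as Agt. With 4 arrays this likeness is a description only.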

How the data were processed

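The authors deposited 1 linear intensity for each probe set and array. The submitters' processing notes name PLIER 2.0 and Affymetrix Expression Console 1.1.1. How arrays were normalized to each other, and the genome build, is not given in the sources used here. Median intensities were 123 to 132, and 9.44% to 10.1% of values per array lay below 16. The table has no detection calls, and precision is limited by having 4 arrays. Of 35557 probe sets, 21789 name 1 gene, 1621 several and 12147 none. By Entrez ID, 21698 matched the RefSeq table, with 0 symbols changed.

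Values were tested as log2(intensity + 16) with a group term in limma (version 3.58.1, R 4.3.3; lmFit and trended eBayes, two-sided, Benjamini-Hochberg over all genes), after leaving out the 25% of genes with the lowest mean (4985). The fit was tested on simulated data. An exact permutation of 2 against 2 arrays cannot go below p = 0.333. Replicates are called biological in the titles, so the spread between arrays of a group is that between pools of 2 mice. Limma draws each gene's variance towards a trend over all genes (6.94 prior against 2 residual degrees of freedom). The p-values therefore do not rest on each gene's own spread alone.

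The genes and lists were chosen with earlier results of these data known. Named genes were all 8 with a value, called genes of each list (up to 5, otherwise the 2 with the smallest p), listed receptors and the 6 genes with the most similar profile; single marker genes were named as examples after their values were seen. Alternatives were the pseudocount, filter, scaling, variance model, probe set rule, replicate block, threshold and leaving out each array.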

Additional observations from a re-analysis of the deposited data

How the results depend on the processing

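All 8 genes kept a positive difference under every alternative in which they were tested, and the calls of Lep, Adipoq, Agt and Adig held wherever they were tested. Lep, Nrg4 and Adig were not tested with the lower 50% of genes left out, nor Lep without either Ovol2 BT array. Leaving out an array removes the gap between the arrays of its group from the fit, so calls there were not read as support. With 1 array left out (the lone array is assumed to vary like the others) the count of the 8 called was 4 to 6, of pathway genes 10 to 13 and of all genes 204 to 351. Over all genes, 351 were called with control replicate 1 left out and 244 with Ovol2 BT replicate 2 left out, against 144 (92 higher, 52 lower); with control replicate 2 left out the split was 105 higher and 108 lower. With each array centred on the median level of the cell junction genes, the median of all genes moved from -0.04 to 0.67. Calls rose to 8 of the 8 genes, 76 pathway genes and 8650 genes in all (99.5% higher, against 63.9%). The median level fell on different genes in the groups, and the prior degrees of freedom of this fit were infinite. Each variance was therefore that of the trend alone, as it also was with either control array left out. Calls in these fits do not rest on a gene's own spread. Centring on the median deviation of the same cell junction genes, chosen after seeing the data, moved the median of all genes to 0.24 and called 4 of the 8, 14 pathway genes and 155 genes (88.4% higher). With the replicate number as a block, 5 of the 8 (Retn added), 20 pathway genes (19 higher, 1 lower) and 671 genes (323 higher, 348 lower) were called; across genes, the deviations of arrays with the same number had a correlation of 0.41, but with 2 numbers and no shared source in the labels they were not taken as pairs. Rbp4 and Angptl4 were called only under the centring on median level (1.06 and 1.13), and Nrg4 there (1.29) and without control replicate 1. Depth cannot be judged from intensities, and Lep and Adig lie near the dim end in controls.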
